A study of Mus musculus with 24 samples.

Results

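Chemokines are small secreted proteins that attract leukocytes, and their receptors are G protein-coupled receptors on the cells that respond. They are classed as CC, CXC or XC ligands by the spacing of their first cysteines. In the mammary gland they are best known for bringing macrophages and eosinophils to the growing ducts and for drawing lymphocytes into the gland in pregnancy and lactation. The genes described here are all those whose array name begins with Ccl, Cxcl, Ccr, Cxcr, Xcl or Xcr and a number, apart from Ccl28 and Ccr10, which were left out by the same rule. They came to 50 genes on 70 probes, out of 36591 genes on 56605 probes, and comprised 34 ligands and 16 receptors.

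Inguinal mammary glands (gland 4, with the lymph node cut out) of female C57BL/6 mice were measured on 1-colour Agilent mouse arrays, 1 array per mouse. Homozygous SOCS2 R96C knock-in mice at day 18 of pregnancy (SOCS2_KI_G18, n = 5) and wild-type mice at that day (WT_G18, n = 5) were set beside knock-in virgins (SOCS2_KI_V8w, n = 7) and wild-type virgins (WT_V8w, n = 7), both at 8 weeks of age. SOCS2 dampens the response to growth hormone and prolactin, which signal through STAT5, and R96C is a single amino acid change in it that the array does not read, so the genotypes rest on the labels. The labels give no age for the pregnant mice, so pregnancy and age cannot be told apart. The design addressed how the knock-in allele alters gland development and function, and no group received a treatment. Each gland is a mixture of cells, so fewer cells of a type and less RNA per cell cannot be told apart in any value below.

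All 24 mice were different animals. The 3 slides of 8 arrays held all 4 groups. Of the arrays, 2 stood apart. The array of knock-in virgin 376 had a mean negative-control signal of 346, and 57003 of its 59305 spots read well above background, while that of knock-in day-18 mouse 184 had 50.2 and 43055. The other 22 arrays had 27.9 to 39.7 and 33374 to 39174. Knock-in virgin 198 had the lowest luminal epithelium score (−2.48, the mean log2 value over 10 marker genes, against a group median of 2.18). Luminal, basal and adipocyte marker genes all passed the filter in these glands (10 of 10, 8 of 8 and 8 of 8). Skeletal muscle marker scores ranged from −4.04 to 7.02 in knock-in day-18 glands, −4.38 to 1.26 in wild-type day-18 glands, −1.63 to 8.75 in knock-in virgins and −4.29 to 7.77 in wild-type virgins.

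Values are log2 signals relative to the 75th percentile of the same array, called relative signal below. A gene was tested where a probe of it passed the scanner's background test on 80% or more of the arrays in some group. This kept 37 of the 50 genes, 28 ligands and 9 receptors. The 13 others were too dim to test: the ligands Ccl1, Ccl22, Ccl26, Cxcl2, Cxcl3 and Cxcl5, and the receptors Ccr1, Ccr4, Ccr8, Cxcr1, Cxcr2, Cxcr5 and Xcr1. None of these 13 was well above background on more than 8 of the 24 arrays. Because a gene could pass through the stage in which it is bright, the 37 are not all members and their counts are read beside those of all tested genes.

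Between day 18 and the virgin state, 18 of the 37 genes changed in knock-in glands (10 higher, 8 lower) and 17 in wild-type glands (6 higher, 11 lower) at an adjusted p under 0.05. Over all 22382 genes tested, 42.2% changed in knock-in glands (23.7% higher, 18.5% lower) and 40.8% in wild-type glands (21.6% higher, 19.3% lower), so the members' shares, 48.6% and 45.9%, lay close to the background. The median log2 difference of the members was −0.27 in knock-in and −0.29 in wild-type glands, and that of all genes was 0.12 and 0.07. The stage difference had the same sign in both genotypes for 36 of the 37 members, the exception being Ccl4. This agreement was not counted over all genes, so it is not read as particular to the members. Ccl20, Cxcl16, Cxcl17, Ccl5, Xcl1 and Cxcr6 were higher at day 18 in both genotypes, and those lower in both included Ccl2, Ccl6, Ccl11, Ccl24, Cxcl12, Cxcl15 and Ccr2. The groups of 5 members did not overlap between stages in knock-in glands (19.1% of all genes) and those of 13 in wild-type glands (39.0% of all genes). Within each of the 3 slides every called member kept the sign of its difference, 18 of 18 in knock-in and 17 of 17 in wild-type glands. These members were called on the same arrays, and some slides held only 1 array of a day-18 group. The signs are therefore no independent check. Scaling to spike-in probes instead moved the median of all genes to −0.78 in knock-in and −0.91 in wild-type glands. With it 2 members were higher and 17 lower in knock-in glands, and 1 was higher and 21 lower in wild-type glands. Over all genes 1372 were higher and 11644 lower in knock-in glands (58.2% called), and 1142 and 13665 in wild-type glands (66.2%). Every direction below is therefore relative to the 75th percentile.

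**Figure D1:**
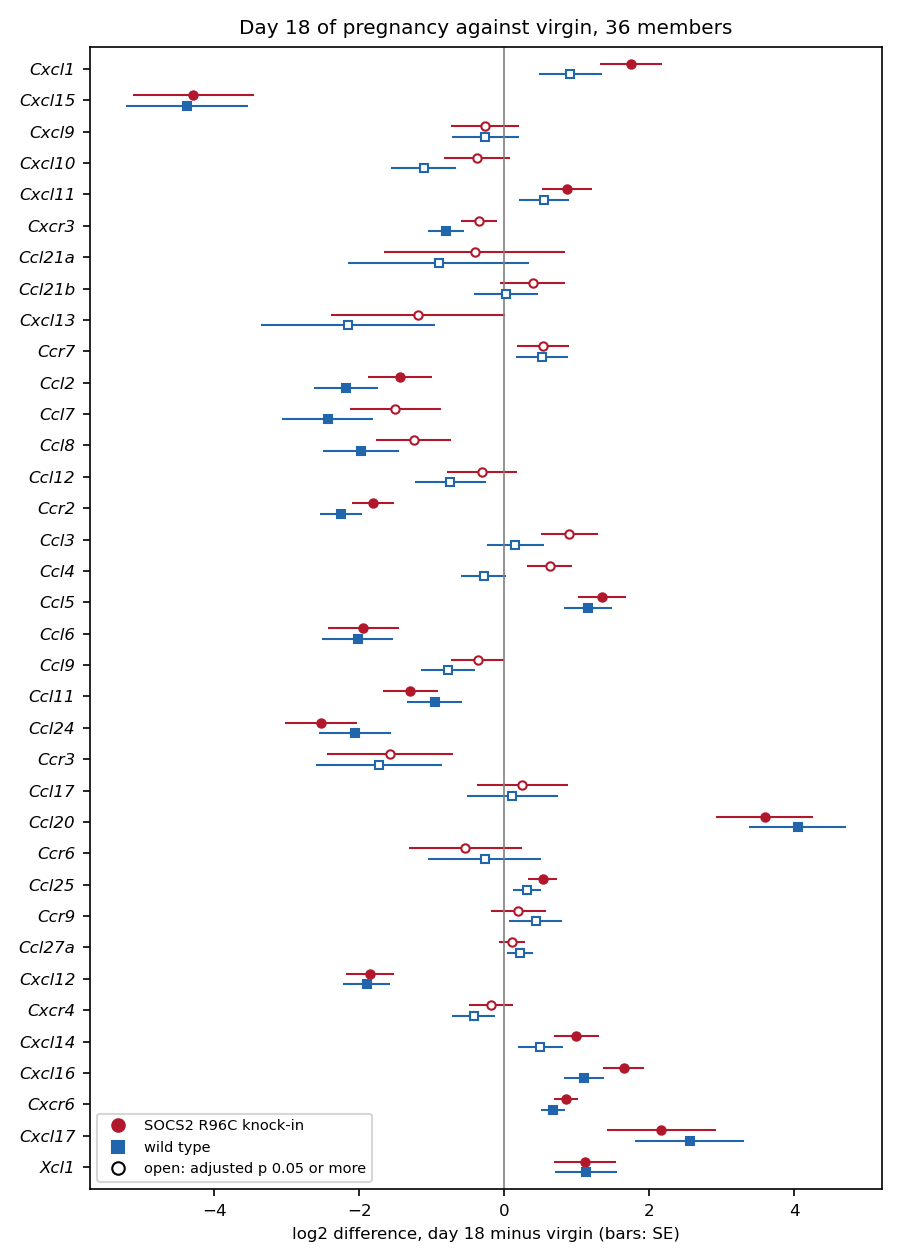
Log2 difference of relative signal, day 18 minus virgin, for 36 of the 37 tested chemokine and receptor genes, in knock-in (red circles) and wild-type glands (blue squares), with bars of 1 SE and filled symbols for an adjusted p under 0.05. Cxcl16 lies to the right of 0 (1.64 and 1.10) and Ccr2 to the left (−1.82 and −2.26). The symbols of Ccl20 and Cxcl15 are fitted differences against groups with no or few arrays above background, so their positions are not measured sizes.

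The sequences upstream of 4 genes are printed to show what lies before a pair of genes that were higher at day 18 (Ccl20 and Xcl1) and a pair that were lower (Ccl6 and Ccr2) in both genotypes. RefSeq promoters (GRCm38.p6) were found for 36 of the 50 genes. Each line gives the 150 bases before the start site, 5′ to 3′ on the gene's strand: Ccl20 at chr1:83116616-83116765 (plus strand), Xcl1 at chr1:164935523-164935672 (minus strand), Ccl6 at chr11:83593088-83593237 (minus strand) and Ccr2 at chr9:124102033-124102182 (plus strand). Capitals mark matches to an NF-kappaB-like motif.
Ccl20: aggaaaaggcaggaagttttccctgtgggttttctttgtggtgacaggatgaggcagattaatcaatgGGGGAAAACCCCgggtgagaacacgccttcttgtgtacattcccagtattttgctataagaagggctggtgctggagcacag
Xcl1: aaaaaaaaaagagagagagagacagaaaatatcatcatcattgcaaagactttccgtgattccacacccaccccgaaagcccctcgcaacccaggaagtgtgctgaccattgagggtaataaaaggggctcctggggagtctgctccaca
Ccl6: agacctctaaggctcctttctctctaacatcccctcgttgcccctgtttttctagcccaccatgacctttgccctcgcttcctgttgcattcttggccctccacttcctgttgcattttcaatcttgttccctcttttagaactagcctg
Ccr2: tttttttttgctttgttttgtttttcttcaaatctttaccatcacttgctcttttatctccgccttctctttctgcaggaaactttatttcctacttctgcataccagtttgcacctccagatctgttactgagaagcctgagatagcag
The motifs searched on both strands were GGG and CC with any 5 bases between them (NF-kappaB-like), TTCNNNGAA (STAT-like) and GAAA repeated after any 2 bases (IRF-like). Ccl20 held 3 overlapping NF-kappaB-like matches from −82 to −71, and the 250 bases before Xcl1, Ccl6 and Ccr2 held none of the 3 motifs. Such letters are common: 45.8% of all 32851 promoter windows of 250 bases held the NF-kappaB-like motif, 7.02% the STAT-like and 2.98% the IRF-like one. Of the 40 windows of member genes 21, 3 and 2 held them.

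Ccl20, the ligand of Ccr6 that attracts dendritic cells, B cells and T cells and is made by epithelium, was higher at day 18 in both genotypes. Its relative signals were −5.32, −5.30, −3.97, −1.45 and −1.30 in knock-in day-18 glands, against −8.00, −7.22 and −5.67 (lowest, median and highest) in knock-in virgins. Wild-type day-18 glands had −5.22, −4.51, −3.81, −1.84 and −1.75, against −7.77, −7.55 and −6.61 in wild-type virgins. Each day-18 mouse was above every virgin of its genotype, and both day-18 groups held a pair of mice well above the other 3. The probe was well above background on 3 of 5 knock-in and 4 of 5 wild-type day-18 arrays and on none of the 14 virgin arrays. The difference is therefore a bound, the day-18 mean against the dimmest signal that counts as detected in virgins: at least 2.65-fold higher in knock-in glands (adjusted p = 0.000146) and at least 3.71-fold higher in wild-type glands (adjusted p = 4.07e-05). These bounds hold for the scanner's processed signal, and with normexp background correction the fitted log2 differences were 1.35 (adjusted p = 0.00135) and 1.24 (adjusted p = 0.00287), which lie below them. Ccl20 passed the filter only through the wild-type day-18 group, where it is bright. Its adjusted p values are therefore no independent support for the rise. The probe, on mm9 chr1:83115500-83115559 (plus strand), begins with these 30 bases.
Ccl20 probe: tagatctgaattttctatgtttagctattt
The receptor Ccr6 was dim, with values from −5.16 to −1.98 in knock-in day-18, −6.49 to −3.67 in wild-type day-18, −5.73 to 0.23 in knock-in virgin and −5.67 to −3.33 in wild-type virgin glands, and was not called (log2 difference −0.54 ± 0.78, SE, adjusted p = 0.615 in knock-in; −0.27 ± 0.78, adjusted p = 0.816 in wild-type glands). The highest of these, 0.23, is array 376.

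Cxcl16 and Cxcl17, ligands of epithelium and mucosa, rose in both genotypes. Cxcl16, a membrane-bound ligand of Cxcr6, had 0.87, 0.89, 1.30, 1.64 and 2.04 in knock-in day-18 glands, against −1.04, −0.23 and 0.89 (lowest, median and highest) in knock-in virgins. At day 18 wild-type glands had 0.50, 0.87, 0.91, 1.03 and 1.67, against −0.58, −0.02 and 0.29 in wild-type virgins. The wild-type groups did not overlap, while 1 knock-in virgin (mouse 384) lay at the low end of the knock-in day-18 range. Cxcl16 was 3.12-fold higher at day 18 in knock-in (1.64 ± 0.28, SE, adjusted p = 6.01e-05) and 2.14-fold in wild-type glands (1.10 ± 0.28, adjusted p = 0.00312), and a second probe gave 1.96 and 1.85 (log2). Cxcl17, a mucosal chemokine, had −1.07, −0.19, −0.09, 0.01 and 0.46 in knock-in day-18 glands, against −7.13, −1.66 and −0.46 in knock-in virgins. The wild-type day-18 values were −0.90, −0.28, −0.25, −0.22 and 0.87, against −4.16, −2.67 and −1.62 in wild-type virgins. All 5 wild-type pregnant mice were above all wild-type virgins, and the knock-in groups overlapped. Cxcl17 was 4.49-fold higher in knock-in (2.17 ± 0.75, adjusted p = 0.0237) and 5.88-fold higher in wild-type glands (2.56 ± 0.75, adjusted p = 0.00865). The lowest knock-in virgin value, −7.13, is mouse 198, and without the arrays of mice 376, 184 and 198 the knock-in difference was 1.13 ± 0.49 (adjusted p = 0.0572). Luminal epithelium markers were higher at day 18 as well, 8 of 10 in knock-in and 6 of 10 in wild-type glands and none lower, with scores of 4.56 to 5.26 in knock-in day-18, −2.48 to 2.74 in knock-in virgin, 4.58 to 5.04 in wild-type day-18 and 0.98 to 3.12 in wild-type virgin glands. Their part in the rise of Ccl20, Cxcl16 and Cxcl17 was not tested. Cxcl15, also a ligand of epithelia, was lower at day 18 in both genotypes and is described further on.

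Ccl5, Xcl1 and Cxcr6, which T and NK cells carry, were higher at day 18 in both genotypes. Not every member tied to lymphocytes rose. Cxcr3, whose ligands attract activated T cells, was lower in wild-type glands (−0.81) and not called in knock-in glands (−0.35). Ccr7, Ccl3 and Ccl4 were called in neither genotype. Ccl5, a leukocyte attractant made by T and NK cells among others, had 2.86, 2.97, 3.04, 3.05 and 3.11 in knock-in day-18 glands, against −0.03, 1.77 and 2.70 in knock-in virgins. Among wild-type mice, day-18 glands had 2.65, 2.89, 2.92, 2.99 and 3.19, against 1.11, 1.77 and 2.35 in wild-type virgins. No virgin reached the day-18 range of its genotype, and the knock-in day-18 values lay close together. Ccl5 was 2.54-fold higher in knock-in (1.34 ± 0.33, adjusted p = 0.00228) and 2.23-fold higher in wild-type glands (1.16 ± 0.33, adjusted p = 0.00753). Xcl1, lymphotactin, the ligand of Xcr1, had −2.64, −2.59, −2.23, −2.15 and −1.56 in knock-in day-18 glands, against −4.46, −3.48 and −0.87 in knock-in virgins, where −0.87 is array 376. Wild-type day-18 glands had −2.90, −2.64, −2.62, −2.52 and −2.43, against −4.26, −3.91 and −3.02 in wild-type virgins. The wild-type groups did not overlap, and array 376 alone overlapped among the knock-in mice. Xcl1 was 2.15-fold higher in knock-in (1.11 ± 0.43, adjusted p = 0.0405) and 2.19-fold higher in wild-type glands (1.13 ± 0.43, adjusted p = 0.038). Its call was lost without any 1 of mice 198, 184, 239 or 183 in knock-in glands (adjusted p = 0.0673 to 0.104) and without any 1 of 234, 206, 232 or 235 in wild-type glands (adjusted p = 0.0612 to 0.0757).

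Cxcr6, the receptor of Cxcl16 on activated T and NK cells, had −0.18, −0.04, 0.01, 0.23 and 0.30 in knock-in day-18 glands, against −1.06, −0.80 and −0.49 in knock-in virgins. At day 18 wild-type glands had −0.41, −0.37, −0.32, −0.21 and −0.01, against −1.35, −0.98 and −0.33 in wild-type virgins. The knock-in groups did not overlap, and 1 wild-type virgin (mouse 188) lay within the wild-type day-18 range. Cxcr6 was 1.79-fold higher in knock-in (0.84 ± 0.16, adjusted p = 0.000242) and 1.60-fold higher in wild-type glands (0.67 ± 0.16, adjusted p = 0.00204), but with spike-in scaling the differences were −0.061 and −0.30. T and NK cell markers had scores of −0.42 to −0.06 in knock-in day-18 and −1.63 to −0.16 in knock-in virgin glands, and −0.62 to −0.19 in wild-type day-18 and −1.58 to −0.88 in wild-type virgin glands. Of 9 markers tested, 5 were higher and none lower in knock-in glands, and 6 were higher and 1 lower in wild-type glands; 2 listed markers were too dim. Their part in the rise of Ccl5, Xcl1 and Cxcr6 was not tested.

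The monocyte attractant Ccl2 and its receptor Ccr2 fell in both genotypes. Of the 5 genes of their group, which also holds Ccl7, Ccl8 and Ccl12, 4 fell in wild-type glands, and in knock-in glands 2 of 5 (Ccl2 and Ccr2), with median differences of −1.44 in knock-in and −2.18 in wild-type glands. Ccl2, the main monocyte attractant, had −0.89, −0.33, 0.44, 0.52 and 0.57 in knock-in day-18 glands, against −0.07, 1.59 and 2.82 in knock-in virgins. The wild-type day-18 values were −0.79, −0.56, −0.02, 0.00 and 0.39, against 0.54, 2.11 and 2.99 in wild-type virgins. The wild-type groups were apart, and knock-in virgin 196 lay within the knock-in day-18 range. Ccl2 was 2.72-fold lower in knock-in (−1.44 ± 0.44, adjusted p = 0.0106) and 4.54-fold lower in wild-type glands (−2.18 ± 0.44, adjusted p = 0.000359). Ccr2, the receptor on inflammatory monocytes, had −2.31, −1.95, −1.15, −1.09 and −0.98 in knock-in day-18 glands, against −0.49, 0.26 and 0.88 in knock-in virgins. Among wild-type mice, day-18 glands had −2.46, −2.23, −1.93, −1.47 and −1.19, against −0.19, 0.55 and 0.88 in wild-type virgins. Every virgin was above every pregnant mouse in both genotypes. Ccr2 was 3.52-fold lower in knock-in (−1.82 ± 0.29, adjusted p = 2.28e-05) and 4.79-fold lower in wild-type glands (−2.26 ± 0.29, adjusted p = 1.48e-06).

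Ccl7, a further ligand of Ccr2, and Ccl8, a related monocyte attractant, fell in wild-type glands. Ccl7 had −2.64, −1.45, −0.27, −0.21 and 0.30 in knock-in day-18 glands, against −0.93, 0.22 and 2.71 in knock-in virgins. Wild-type day-18 glands had −2.45, −1.71, −1.65, −1.43 and −0.67, against −0.64, 0.34 and 2.71 in wild-type virgins. The lowest wild-type virgin was just above the highest wild-type day-18 mouse, while the knock-in groups overlapped widely. Ccl7 differed by −1.50 ± 0.63 in knock-in (adjusted p = 0.0577) and was 5.42-fold lower in wild-type glands (−2.44 ± 0.63, adjusted p = 0.0032). Ccl8 had 1.71, 2.06, 3.56, 4.27 and 4.40 in knock-in day-18 glands, against 3.07, 4.55 and 6.22 in knock-in virgins, and 1.48, 2.16, 2.20, 2.82 and 3.35 in wild-type day-18 glands, against 3.68, 4.38 and 5.36 in wild-type virgins. Again the wild-type groups were apart and the knock-in groups were not. Ccl8 differed by −1.25 ± 0.52 in knock-in (adjusted p = 0.0569) and was 3.95-fold lower in wild-type glands (−1.98 ± 0.52, adjusted p = 0.00382). Without the arrays of mice 376 and 184 both passed in knock-in glands, at −1.72 (adjusted p = 0.0483) for Ccl7 and −1.56 (adjusted p = 0.0251) for Ccl8. Ccl12, another ligand of Ccr2, had −0.31 ± 0.49 in knock-in and −0.75 ± 0.49 in wild-type glands and was not called (adjusted p = 0.651 and 0.235). Whether the fall differed between genotypes was tested as an interaction, and none of the 5 genes passed (adjusted p = 1 for each).

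Among the inflammatory CC ligands the members moved in different directions. Ccl6, a ligand of Ccr1 made by macrophages, had 2.21, 2.50, 4.05, 4.69 and 4.75 in knock-in day-18 glands, against 4.59, 5.64 and 7.25 in knock-in virgins. At day 18 wild-type glands had 2.83, 3.82, 4.26, 4.28 and 4.49, against 4.86, 5.85 and 6.79 in wild-type virgins. Knock-in day-18 mice 210 and 239 were well below the other 3 of their group, and the wild-type groups did not overlap. Ccl6 was 3.85-fold lower in knock-in (−1.95 ± 0.49, adjusted p = 0.00258) and 4.07-fold lower in wild-type glands (−2.02 ± 0.49, adjusted p = 0.00194). Ccl9, a neighbour of Ccl6, had differences of −0.37 and −0.78 and was not called (adjusted p = 0.453 in knock-in and 0.1 in wild-type glands). Ccl3 and Ccl4, made by activated macrophages and lymphocytes, were not called by stage, and their values by genotype are given further on.

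Macrophage markers fell at day 18 in 8 of 10 genes in each genotype, and none rose. Their scores were 1.19 to 2.50 in knock-in day-18 and 1.85 to 4.22 in knock-in virgin glands, and 1.33 to 2.23 in wild-type day-18 and 2.44 to 4.12 in wild-type virgin glands. The 2 lowest knock-in day-18 scores were 1.19 in mouse 239 and 1.21 in mouse 210, and the lowest wild-type day-18 score was 1.33 in mouse 234. The highest virgin scores were 4.22 in knock-in mouse 384 and 4.12 in wild-type mouse 317. The part of these markers in the fall of Ccl2, Ccl6, Ccl7, Ccl8 and Ccr2 was not tested.

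**Figure D2:**
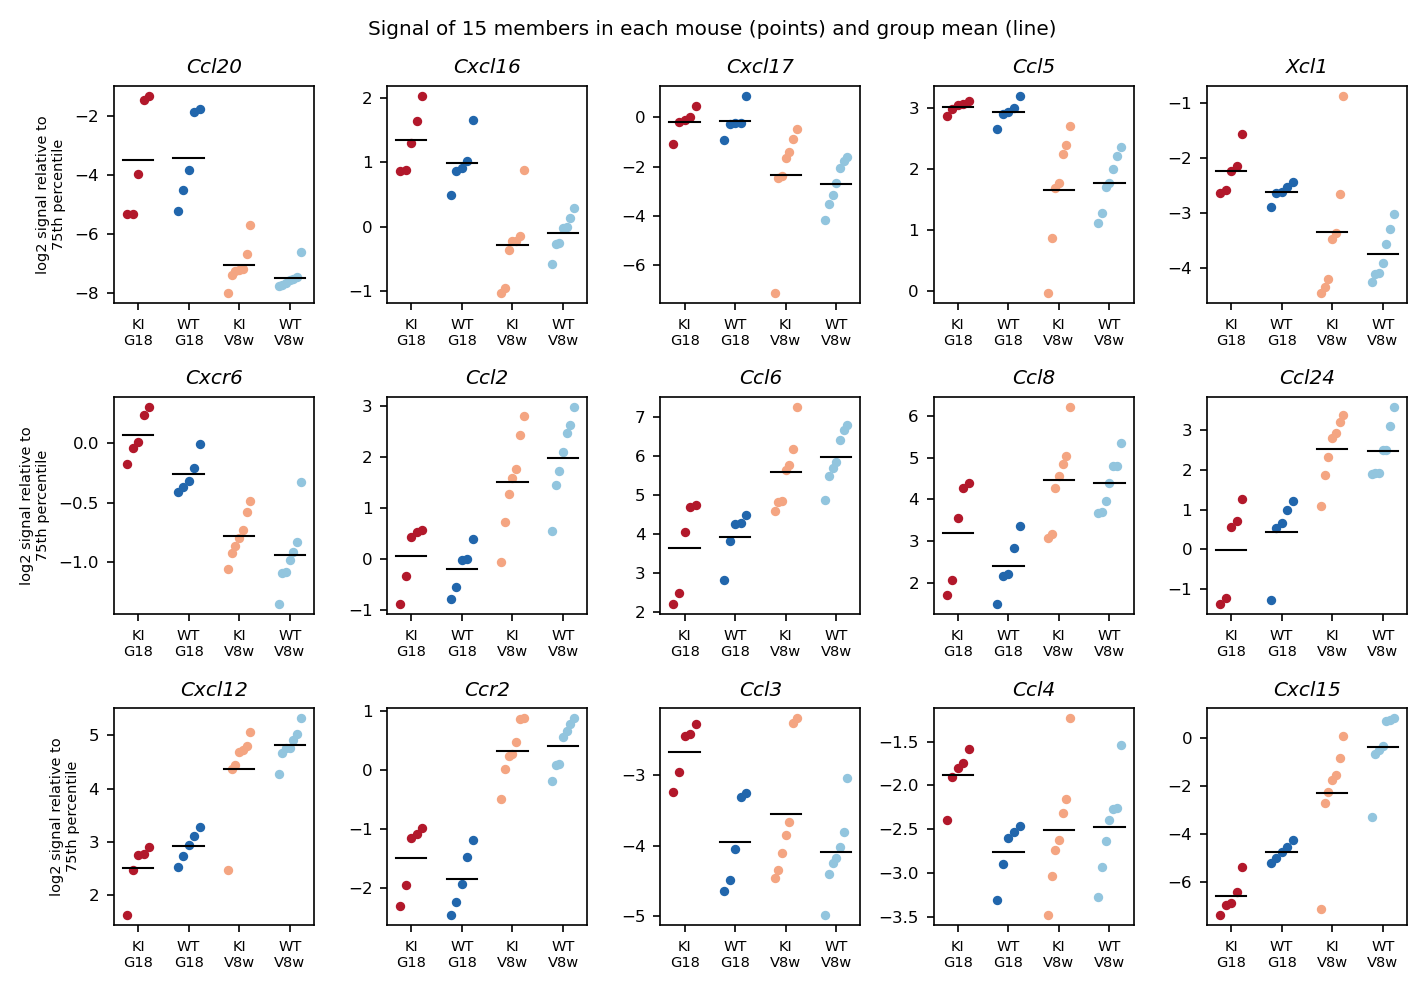
Relative signal (log2, vertical axis) of 15 members in each mouse, by group from left to right: knock-in day 18, wild-type day 18, knock-in virgin and wild-type virgin, with points for mice and a line for the group mean. The day-18 points of Ccl5 lie above all virgins of the same genotype, the day-18 points of Ccr2 lie below all virgins, and those of Ccl3 and Ccl4 are higher in knock-in than in wild-type glands at day 18.

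The eosinophil attractants Ccl11 and Ccl24, ligands of Ccr3, were lower at day 18 in both genotypes. Ccl24 (eotaxin-2) had −1.38, −1.22, 0.56, 0.71 and 1.28 in knock-in day-18 glands, against 1.09, 2.81 and 3.39 in knock-in virgins. Among wild-type mice, day-18 glands had −1.27, 0.53, 0.66, 0.99 and 1.23, against 1.89, 2.50 and 3.59 in wild-type virgins. The wild-type groups did not overlap, and array 376, at 1.09, alone overlapped among the knock-in mice. Ccl24 was 5.77-fold lower in knock-in (−2.53 ± 0.50, adjusted p = 0.000277) and 4.18-fold lower in wild-type glands (−2.06 ± 0.50, adjusted p = 0.00191). Ccl11 (eotaxin), which eosinophils follow into the growing gland, had −0.25, 0.60, 1.65, 1.74 and 1.79 in knock-in day-18 glands, against 0.74, 2.59 and 3.04 in knock-in virgins. Wild-type day-18 glands had 0.87, 1.60, 1.62, 1.67 and 2.0, against 1.75, 2.66 and 3.10 in wild-type virgins. The groups of both genotypes overlapped for Ccl11, and the lowest knock-in virgin, 0.74, is array 376. Ccl11 was 2.46-fold lower in knock-in (−1.30 ± 0.38, adjusted p = 0.00845) and 1.95-fold lower in wild-type glands (−0.96 ± 0.38, adjusted p = 0.047). The wild-type call was lost without any 1 of wild-type day-18 mice 234, 206, 232 and 235 (adjusted p = 0.0697 to 0.135) and, at adjusted p = 0.05, without knock-in day-18 mouse 210. The receptor Ccr3 had −6.24 to −1.29 in knock-in day-18, −6.81 to −4.20 in wild-type day-18, −5.17 to 0.54 in knock-in virgin and −5.72 to −2.14 in wild-type virgin glands. It was well above background on 2 of 5 arrays in each day-18 group and 6 of 7 in each virgin group, and was not called (−1.57 ± 0.87, adjusted p = 0.154 in knock-in; −1.73 ± 0.87, adjusted p = 0.119 in wild-type glands). Without the arrays of mice 376 and 184 it was lower in both, at −1.81 in knock-in (adjusted p = 0.0281) and −1.73 in wild-type glands (adjusted p = 0.0199). Ccr3 passed the filter only through the virgin groups, where it is brighter. Mast cell and eosinophil markers had scores of −2.72 to −0.41 in knock-in day-18 and −0.38 to 0.46 in knock-in virgin glands, and −2.22 to −0.76 in wild-type day-18 and −0.62 to 0.61 in wild-type virgin glands. Of 9 tested, 5 were lower and 1 higher in knock-in glands, and 4 lower and 1 higher in wild-type glands. The list mixes mast cell and eosinophil genes, so these counts are not of eosinophil markers alone. Of its eosinophil genes, Siglecf and Prg2 overlapped between stages in both genotypes, and Il5ra did so in knock-in but not in wild-type glands. The part of these markers in these results was not tested.

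Cxcl12, a stromal ligand of Cxcr4 that holds leukocytes and progenitor cells in tissues, fell in both genotypes. Its values were 1.63, 2.48, 2.76, 2.77 and 2.91 in knock-in day-18 glands, against 2.47, 4.69 and 5.06 in knock-in virgins. At day 18 wild-type glands had 2.54, 2.74, 2.94, 3.12 and 3.28, against 4.28, 4.77 and 5.33 in wild-type virgins. Only array 376, at 2.47, kept the knock-in groups from being apart. Cxcl12 was 3.62-fold lower in knock-in (−1.86 ± 0.33, adjusted p = 7.75e-05) and 3.73-fold lower in wild-type glands (−1.90 ± 0.33, adjusted p = 6.41e-05), and a second probe gave −0.90 and −0.96. Without the arrays of mice 376 and 184 the knock-in difference was −2.27 ± 0.22 (adjusted p = 3.31e-08). Cxcr4 had −2.62 to −2.01 in knock-in day-18, −2.86 to −2.33 in wild-type day-18, −3.03 to −0.63 in knock-in virgin and −2.72 to −1.55 in wild-type virgin glands and was not called (−0.19 ± 0.30, adjusted p = 0.655 in knock-in; −0.43 ± 0.30, adjusted p = 0.276 in wild-type glands). Of 8 fibroblast markers, 7 were lower in knock-in and 8 in wild-type glands. Their scores were 3.39 to 4.64 in knock-in day-18 and 3.61 to 6.08 in knock-in virgin glands, and 3.66 to 4.37 in wild-type day-18 and 5.46 to 6.05 in wild-type virgin glands. White adipocyte markers were lower in 5 of 8 genes in each genotype, with scores of 3.54 to 4.93 in knock-in day-18 and 4.11 to 6.43 in knock-in virgin glands, and 4.68 to 5.19 in wild-type day-18 and 5.9 to 6.35 in wild-type virgin glands. Blood endothelium markers were lower in 4 of 7 genes in knock-in and 3 of 7 in wild-type glands, and none was higher. The part of these 3 marker lists in the fall of Cxcl12 was not tested.

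Of the neutrophil-attracting CXC ligands, Cxcl1 and Cxcl15 could be tested, and in knock-in glands they moved in opposite directions. Cxcl15 (lungkine), a CXC ligand of lung and other epithelia, had −7.36, −6.94, −6.87, −6.40 and −5.34 in knock-in day-18 glands, against −7.11, −1.73 and 0.10 in knock-in virgins. The wild-type day-18 values were −5.18, −4.99, −4.74, −4.53 and −4.25, against −3.26, −0.35 and 0.84 in wild-type virgins. The lowest virgin of the knock-in group, −7.11, is mouse 198, and the lowest wild-type virgin is mouse 317 at −3.26. The probe was well above background on no knock-in day-18 array and 6 of 7 knock-in virgin arrays, and on 2 of 5 wild-type day-18 and all 7 wild-type virgin arrays. Cxcl15 was at least 4.42-fold lower at day 18 in knock-in (adjusted p = 0.000248) and differed by −4.38 ± 0.84 (log2) in wild-type glands (adjusted p = 0.00021), where 3 of the 5 day-18 arrays did not measure it. With normexp background correction the difference was −1.07 in knock-in (adjusted p = 0.0541) and −2.12 in wild-type glands (adjusted p = 0.000387). The knock-in difference is then smaller than the bound, which holds only for the scanner's processed signal. Cxcl15 passed the filter only through the virgin groups, where it is bright. Its adjusted p values are therefore no independent support for the fall. The probe, on mm9 chr5:91231948-91232007 (plus strand), begins with these 30 bases.
Cxcl15 probe: agttttgaaagaggtgttactgatcatgtt
Cxcl1 (KC), the main neutrophil attractant of mice, had −0.89, −0.49, −0.17, 0.36 and 0.39 in knock-in day-18 glands, against −2.79, −2.26 and −0.10 in knock-in virgins. Among wild-type mice, day-18 glands had −2.17, −1.57, −1.28, −0.22 and 0.69, against −2.31, −1.82 and −1.30 in wild-type virgins. The highest knock-in virgin is array 376, and wild-type day-18 mice spread over nearly 3 log2 units. Cxcl1 was 3.34-fold higher in knock-in (1.74 ± 0.43, adjusted p = 0.00216) and differed by 0.91 ± 0.43 in wild-type glands (adjusted p = 0.0963). The interaction was not called (0.83 ± 0.61, adjusted p = 1). Neutrophil markers had 1 gene higher and 2 lower of 8 tested in each genotype.

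Of the interferon-induced ligands of Cxcr3, which attract activated T cells, Cxcl9 and Cxcl10 were not called. Cxcl9 had −0.27 ± 0.47 in knock-in (adjusted p = 0.681) and −0.26 ± 0.47 in wild-type glands (adjusted p = 0.689); without the arrays of mice 376 and 184 it was lower in knock-in glands (−0.81, adjusted p = 0.0319). Cxcl10 had −0.38 ± 0.45 (adjusted p = 0.536) in knock-in and −1.12 ± 0.45 (adjusted p = 0.051) in wild-type glands, while its dimmer second probe, well above background on 14 of 24 arrays, was lower in both (−2.12, adjusted p = 0.000974, and −2.23, adjusted p = 0.000598, adjusted over all kept probes). The receptor Cxcr3 had −1.17, −1.07, −0.66, −0.34 and 0.02 in knock-in day-18 glands, against −0.71, −0.38 and 0.35 in knock-in virgins. Wild-type day-18 glands had −1.53, −1.10, −1.04, −1.04 and −0.61, against −0.94, −0.26 and 0.40 in wild-type virgins. It was 1.75-fold lower in wild-type glands (−0.81 ± 0.25, adjusted p = 0.0119) and differed by −0.35 ± 0.25 in knock-in glands (adjusted p = 0.272). The groups overlapped in both genotypes.

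The probe that stands for Cxcl11 shares sequence with other genes, and whether it also binds their transcripts was not tested. RefSeq lists mouse Cxcl11 as a transcribed pseudogene, and a 20-base word of the probe occurs in the promoters of 21 other genes. For 67 of the 70 member probes no such word was found, and the other 2 shared one with 1 gene. The probe, on mm9 chr5:92788567-92788626 (minus strand), begins with these 30 bases.
Cxcl11 probe: agaccaggagtttcaggacagccagggcta
It had 8.42, 8.44, 8.53, 8.95 and 9.05 in knock-in day-18 glands, against 5.47, 8.19 and 8.45 in knock-in virgins, and 8.11, 8.67, 8.72, 8.75 and 8.81 in wild-type day-18 glands, against 7.90, 8.08 and 8.24 in wild-type virgins. Array 376 gave the 5.47. The knock-in difference was 1.81-fold higher (0.86 ± 0.35, adjusted p = 0.0498), and it was −0.045 with spike-in scaling and 0.51 (adjusted p = 0.0117) without the arrays of mice 376 and 184. The call was lost without any 1 of the 10 day-18 mice (adjusted p = 0.0523 to 0.119), with slide as a block (adjusted p = 0.0664) and with quantile normalization, where the difference was 0.072. The wild-type difference was 0.55 ± 0.35 (adjusted p = 0.225, and 0.00314 without those arrays), and the second probe of the gene was called in neither genotype.

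Cxcl14 and Ccl25 were also called in knock-in but not in wild-type glands. Cxcl14, a ligand of epithelium and fat that attracts monocytes and dendritic cells, had 4.14, 4.17, 4.42, 4.45 and 4.52 in knock-in day-18 glands, against 1.58, 3.73 and 3.80 in knock-in virgins, where 1.58 is array 376. At day 18 wild-type glands had 4.24, 4.24, 4.29, 4.30 and 4.80, against 2.98, 3.92 and 4.53 in wild-type virgins. The knock-in groups were apart and the wild-type groups overlapped. Cxcl14 was 1.98-fold higher in knock-in (0.99 ± 0.31, adjusted p = 0.0123) and differed by 0.50 ± 0.31 in wild-type glands (adjusted p = 0.213). Ccl25, the ligand of Ccr9 that directs lymphocytes to the gut, had 0.08, 0.25, 0.73, 0.76 and 0.83 in knock-in day-18 glands, against −0.34, −0.23 and 0.85 in knock-in virgins. The wild-type day-18 values were 0.01, 0.06, 0.25, 0.37 and 0.46, against −0.34, −0.12 and 0.17 in wild-type virgins. It was 1.44-fold higher in knock-in (0.53 ± 0.20, adjusted p = 0.034) and differed by 0.31 ± 0.20 in wild-type glands (adjusted p = 0.217), but turned to −0.38 with spike-in scaling in knock-in glands, and its other 3 kept probes were not called. That call was lost without any 1 of knock-in day-18 mice 210, 184 and 239 (adjusted p = 0.0783 to 0.1). The interaction was called for neither gene.

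The ligands and receptors of lymphocyte homing were not called. Ccl21b, 1 of several nearly identical copies of a Ccr7 ligand that the probes may not tell apart, had 1.82 to 2.75 in knock-in day-18, 1.74 to 2.66 in wild-type day-18, 1.11 to 4.49 in knock-in virgin and 1.10 to 2.88 in wild-type virgin glands. The differences by stage were 0.39 ± 0.44 (adjusted p = 0.518) in knock-in and 0.02 ± 0.44 (adjusted p = 0.977) in wild-type glands. Ccl21a and the B cell attractant Cxcl13 spread widely among mice of 1 group: Ccl21a had −6.40 to 0.35 in knock-in day-18 and −5.09 to 2.71 in knock-in virgin glands, and Cxcl13 had −6.18 to 0.20 in knock-in day-18 and −6.67 to −1.31 in wild-type day-18 glands. Their differences had SE of 1.25 and 1.20. The highest Ccl21a and Ccl21b values, 2.71 and 4.49, were both of knock-in virgin 198. Ccr7, the receptor that guides lymphocytes and dendritic cells to lymph nodes, had −1.23 to −0.12 in knock-in day-18, −1.46 to −0.59 in wild-type day-18, −2.03 to 0.77 in knock-in virgin and −2.08 to −1.13 in wild-type virgin glands (0.53 ± 0.36, adjusted p = 0.244 in knock-in; 0.51 ± 0.36, adjusted p = 0.266 in wild-type glands). Of 7 lymph node stroma markers tested, 2 were higher and 3 lower in knock-in glands and 2 higher and 2 lower in wild-type glands, and their scores lay between −0.92 and 0.17 on all 24 arrays. Ccl17, a ligand of Ccr4, had −4.52 to −2.60 in knock-in day-18, −4.48 to −3.04 in wild-type day-18, −5.92 to −1.61 in knock-in virgin and −6.18 to −2.22 in wild-type virgin glands. Ccl27a, a skin ligand with nearly identical copies, had 1.38 to 1.97 in knock-in day-18, 1.74 to 2.04 in wild-type day-18, 0.85 to 1.98 in knock-in virgin and 1.30 to 1.95 in wild-type virgin glands. Neither was called, although another of the 4 kept Ccl27a probes was higher in both genotypes (0.49 in each, adjusted p = 0.0234 in knock-in and 0.0229 in wild-type glands, over all kept probes). Ccr9, the receptor of Ccl25, was not called (0.19 ± 0.38 in knock-in, 0.43 ± 0.37 in wild-type glands), and array 376, without a usable value for it, was left out of its fit.

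Several of these calls depended on the scaling or the set of arrays. With scaling to each array's median, Ccl2, Ccl5, Ccl11, Ccl25, Cxcl11, Cxcl14 and Cxcr6 lost their calls in knock-in glands, and Ccl5, Ccl8, Ccl11, Cxcl16, Cxcr3 and Cxcr6 lost theirs in wild-type glands. That scaling called 20.6% of all genes in knock-in and 21.9% in wild-type glands, against 42.2% and 40.8%. With spike-in scaling Ccl5, Cxcl17 and Xcl1 lost theirs in both genotypes, as did Cxcl1 and Cxcl14 in knock-in and Cxcl16 in wild-type glands. Ccl6, Ccl20, Ccl24, Ccr2 and Cxcl12 in both genotypes, Cxcl16 in knock-in glands, and Ccl2, Ccl7 and Cxcl15 in wild-type glands kept the call under every setting that gave a value.

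Several members lie in clusters. The probes of Ccl2, Ccl7, Ccl11, Ccl12 and Ccl8 lie within mm9 chr11:81850650-81930167, and all 5 had negative stage differences in both genotypes (2 called in knock-in, 4 in wild-type glands). In the next cluster, at chr11:83339296-83478111, Ccl5 was higher and Ccl6 lower in both genotypes while Ccl9, Ccl3 and Ccl4 were not called. Whether neighbours moved together more than other genes did was not tested.

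**Figure D3:**
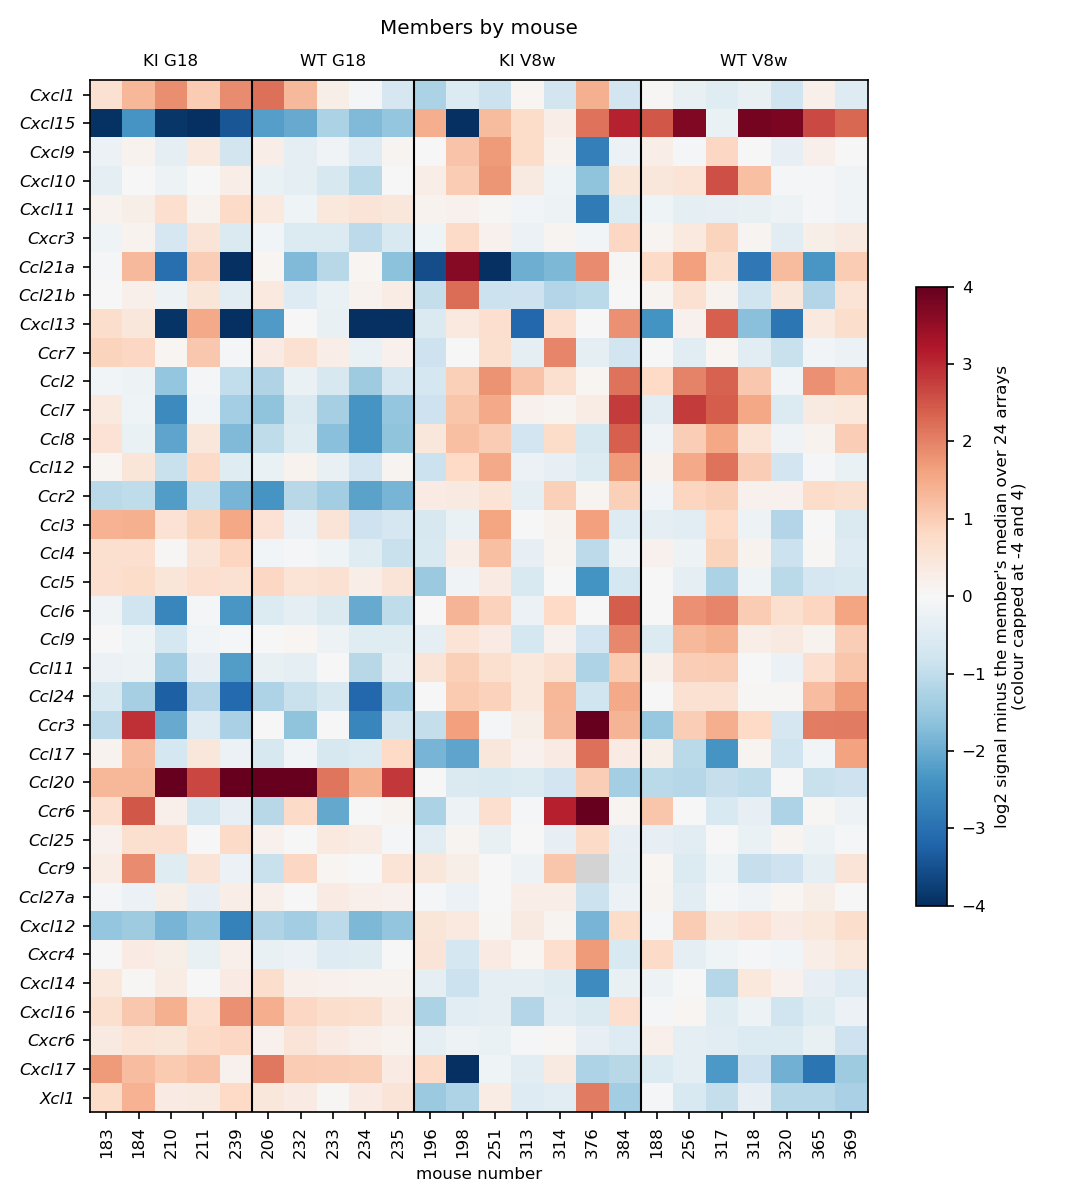
Relative signal of 36 of the 37 tested members (rows, by role) in the 24 mice (columns), shown as log2 difference from each member's median over all arrays, capped at −4 and 4 and grey where no value was usable. Groups run from knock-in day 18 at the left to wild-type virgin at the right. The Ccl2, Ccl7, Ccl8 and Ccl6 rows are lower in knock-in day-18 mice 210 and 239 and wild-type day-18 mouse 234 than in the rest of their groups, and they are highest among knock-in virgins in mouse 384.

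Mice of 1 group differed across many members at once. Of 36 members with a value on every array, wild-type day-18 mouse 234 had the lowest value of its group in 17, while it was lowest for 20% of all genes. Knock-in day-18 mouse 210 was lowest in 16 (12% of all genes). Knock-in virgin 384 was highest in 16 (23.9% of all genes) and wild-type virgin 317 in 14 (15.6%), while wild-type virgin 320 was lowest in 15 (17.1%). Array 376 was highest in 9 and lowest in 11 (33.3% and 53.5% of all genes).

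No member was called between knock-in and wild-type glands, at day 18, in virgins, averaged over the stages or as an interaction, and 0% of the 22382 genes were called in any of the 4 comparisons by limma. At an unadjusted p under 0.05 these comparisons held 2, 1, 3 and 1 members (441, 799, 1131 and 217 of all genes). At day 18 the groups of 3 members did not overlap (1.26% of all genes), and in virgins those of none (0.0179% of all genes). These 3 were named after their values were seen. Ccl3 had −3.24, −2.95, −2.44, −2.41 and −2.27 in knock-in day-18 glands, against −4.64, −4.49, −4.05, −3.31 and −3.25 in wild-type day-18 glands. Its lowest knock-in value was just above its highest wild-type value, and its difference was 1.29 ± 0.43 (unadjusted p = 0.00595, adjusted p = 1). It was well above background on 5 of 5 knock-in and 3 of 5 wild-type day-18 arrays. Ccl4 had −2.39, −1.90, −1.80, −1.75 and −1.58 in knock-in day-18 glands, against −3.31, −2.90, −2.60, −2.53 and −2.46 in wild-type day-18 glands (0.88 ± 0.33, unadjusted p = 0.015, adjusted p = 1), and its second probe, which overlaps the first on the genome, gave 0.63 ± 0.35. In virgins Ccl3 differed by 0.54 ± 0.36 and Ccl4 by −0.04 ± 0.28 (adjusted p = 0.695 and 0.946). The interaction was 0.74 ± 0.56 for Ccl3 and 0.91 ± 0.44 for Ccl4 (unadjusted p = 0.195 and 0.0476, adjusted p = 1 for both). Without the arrays of mice 376 and 184 the day-18 differences were 1.22 and 0.84 (adjusted p = 0.442 and 0.473), and with normexp background correction they were 0.43 for each.

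The probes of Ccl3, at mm9 chr11:83461358-83461417 (minus strand), and Ccl4, at chr11:83478052-83478111 (plus strand), are shown by their first 30 bases because these neighbouring genes carried the differences between genotypes with the smallest unadjusted p at day 18.
Ccl3 probe: catgaactgacaaatgtacaatagatgctt
Ccl4 probe: tattatttatgttttagttataggacgcgt
Cxcl15 was the other member, with the values given above, all 5 knock-in mice below all 5 wild-type mice at day 18 (−1.84 ± 0.91, unadjusted p = 0.0531, adjusted p = 1). None of the knock-in and 2 of the wild-type day-18 arrays read it well above background, so no fold is given, and with normexp background correction the difference was −0.15. In virgins, where the groups overlapped, it differed by −1.94 ± 0.77 (unadjusted p = 0.0185, adjusted p = 0.695), and by −1.27 ± 0.56 without the arrays of mice 376, 184 and 198.

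**Figure D4:**
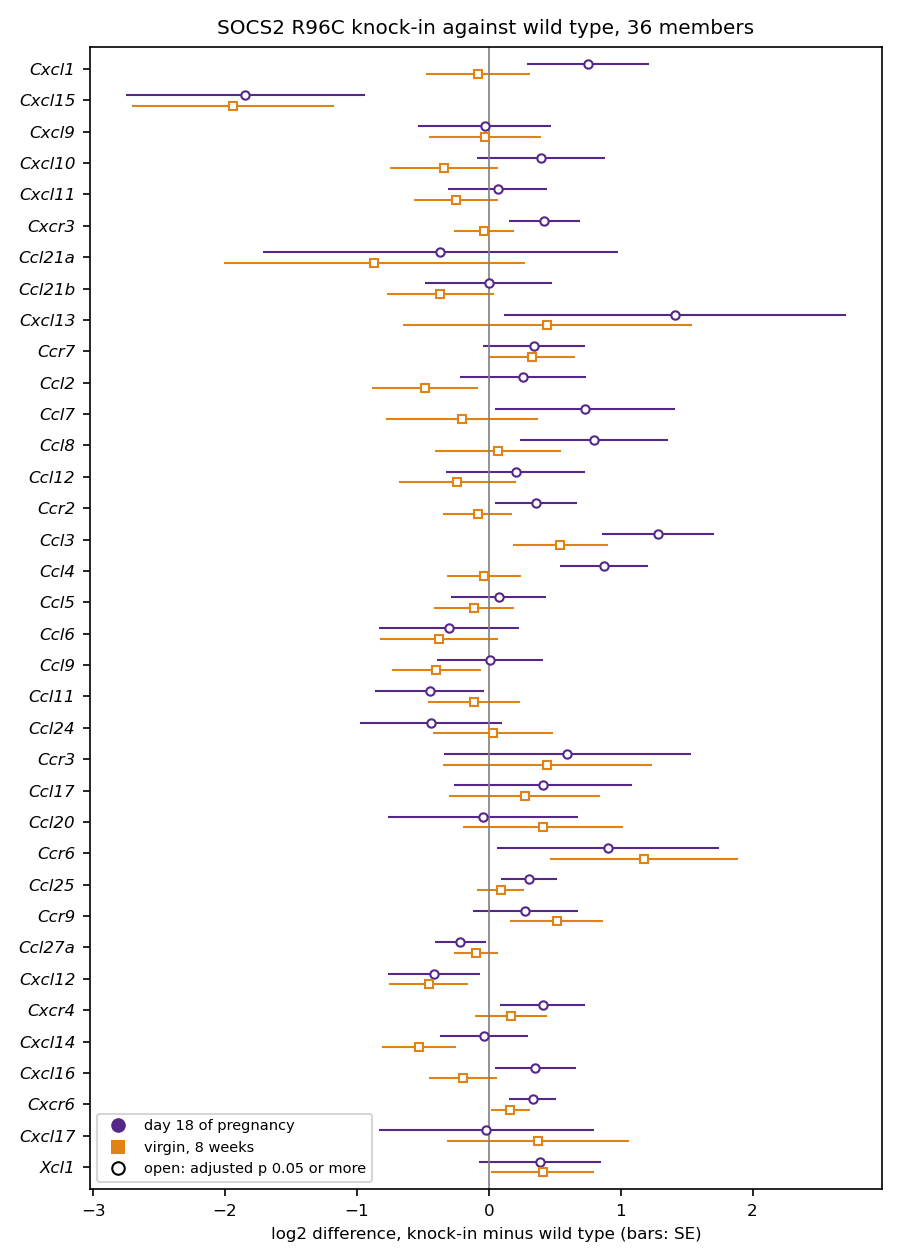
Log2 difference of relative signal, knock-in minus wild type, for 36 of the 37 tested members at day 18 (purple circles) and in virgins (orange squares), with bars of 1 SE. All symbols are open because no adjusted p is under 0.05. At day 18 Ccl3 lies at 1.29 and Ccl4 at 0.88, and the day-18 symbol of Cxcl15 compares groups in which most arrays did not measure it.

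Other genes of the pathway were taken from a list of 25 that hold no member. In knock-in glands 4 were higher and 11 lower at day 18 (median −0.04), and in wild-type glands 3 were higher and 12 lower (median −0.37). Cx3cr1, the fractalkine receptor of macrophages and NK cells, was 3.40-fold higher in knock-in (1.76 ± 0.23, adjusted p = 1.93e-06) and 2.12-fold higher in wild-type glands (1.08 ± 0.23, adjusted p = 0.000591). Ackr4, a receptor that removes Ccl21 and Ccl25 without signalling, was 3.07-fold higher in knock-in (1.62 ± 0.28, adjusted p = 6.92e-05) and 5.42-fold higher in wild-type glands (2.44 ± 0.28, adjusted p = 3.89e-07). Ackr1, a chemokine-binding receptor of venules, was 3.48-fold lower in knock-in (−1.80 ± 0.31, adjusted p = 7.26e-05) and 3.89-fold lower in wild-type glands (−1.96 ± 0.31, adjusted p = 2.92e-05). Dpp4, a protease that trims chemokines, was 3.93-fold and 3.68-fold lower (adjusted p = 0.000205 in knock-in and 0.00036 in wild-type glands), and Dock2, which couples the receptors to Rac in leukocytes, was 2.70-fold lower in knock-in (adjusted p = 0.00191) and 3.61-fold lower in wild-type glands (adjusted p = 0.000174). These directions held under each of 8 other scalings.

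Of 21 listed inducers of chemokine genes 16 could be tested, with 5 higher and 2 lower in knock-in glands (median 0.59) and 3 higher and 2 lower in wild-type glands (median 0.33). Nfkbia, the inhibitor that NF-kappaB induces, was 3.59-fold higher in knock-in (1.84 ± 0.31, adjusted p = 4.58e-05) and 2.68-fold higher in wild-type glands (1.42 ± 0.31, adjusted p = 0.000709). Nfkb2, an NF-kappaB subunit, was 2.97-fold (adjusted p = 0.000383) and 2.20-fold higher (adjusted p = 0.00621). Il1b, an inflammatory cytokine, was 4.54-fold higher in knock-in glands (2.18 ± 0.55, adjusted p = 0.00241) and differed by 1.23 ± 0.55 in wild-type glands (adjusted p = 0.0762), and Relb, another subunit, was 1.85-fold higher in knock-in glands (adjusted p = 0.00878), differed by 0.63 ± 0.26 in wild-type glands (adjusted p = 0.0591), and turned negative in knock-in glands with spike-in scaling. In wild-type glands Il6, an inflammatory cytokine, was well above background on none of 5 day-18 arrays and on 6 of 7 virgin arrays (adjusted p = 0.000184). Il4, a type 2 cytokine, was so likewise on none and on 6 of 7 (adjusted p = 0.0255). With normexp background correction the sign of both wild-type differences turned. Both genes were also called lower in knock-in glands. There Il6 was well above background on none of 5 day-18 and 4 of 7 virgin arrays, and Il4 on 2 of 5 and 6 of 7. Normexp turned the sign of Il6 there but not that of Il4. Both genes passed the filter only through virgin groups.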

How the data were processed

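The authors deposited 1 scanner file per mouse with the processed signal intensity of each spot (Agilent Feature Extraction 12.0.3.2, protocol GE1_1200_Jun14, per the file headers) and a table of values, equal to log10 of the deposited processed signal within 0.005 on each array. The labels name the molecule as polyA RNA, while their protocol labels total RNA. Probe positions are mm9, per the file headers.

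Each array's log2 processed signal was set relative to its 75th percentile over non-control probes, spots of a probe were averaged, and a probe was kept where it passed the background test on 80% or more of the arrays in some group. The brightest kept probe stood for a gene. limma 3.58.1 (R 4.3.3) fitted group means on 24 arrays with lmFit and eBayes for 6 comparisons, with Benjamini-Hochberg adjustment over 22382 genes and calls under 0.05. The steps were tested on simulated data. Control spots were left out, and 162 values were missing. Replicates were different mice, and their number limits the precision. Scores are means of log2 values over a marker list. Alternatives were background correction, scaling, filter, probe rule, slide block, array weights and left-out mice.

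Members and lists were chosen with earlier results of these data known. The values of 1 tested member are not reported here, although counts include it. The text otherwise names every called member, the brightest uncalled genes of a role, the 4 genes of each other list with the smallest adjusted p per stage comparison, and the genes said to be named after their values were seen. Array names were updated through RefSeq where an accession or symbol matched.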

Additional observations from a re-analysis of the deposited data

Results flagged for a closer look

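In 13 of 148 sets of values of a member in a group, 1 mouse lay far from the others by Dixon's test, where chance gives about 5%. Mouse 376 accounted for 4 of them and 9 were found without it. Knock-in virgin 376 was lowest for Ccl11 (0.74), Cxcl11 (5.47), Cxcl12 (2.47) and Cxcl14 (1.58). Knock-in virgin 198 was highest for Ccl21b (4.49) and lowest for Cxcl15 (−7.11) and Cxcl17 (−7.13). Knock-in day-18 mouse 210 was lowest for Ccl9 (3.13). Wild-type day-18 mouse 234 was lowest for Ccl24 (−1.27), mouse 232 was lowest for Cxcl11 (8.11) and mouse 206 was highest for Cxcl14 (4.80). Wild-type virgin 320 was highest for Ccl20 (−6.61), where the probe was not well above background, and mouse 317 was lowest for Cxcl15 (−3.26).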

How the results depend on the processing

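No paired analysis was possible because all mice carry different numbers. With median scaling 10 members were called in knock-in glands (5 higher, 5 lower) and 10 in wild-type glands (3 higher, 7 lower), against 18 and 17. The share of all genes called was then 20.6% in knock-in and 21.9% in wild-type glands, against 42.2% and 40.8%. Knock-in virgins 376 and 198 and each day-18 mouse were left out in turn, while the other virgins were not left out singly. These fits gave 15 to 21 calls in knock-in and 15 to 21 in wild-type glands, and 0 to 0 in the 4 comparisons that involve genotype differences. The share of all genes called in these fits was not counted, so the ranges are not read as particular to the members. Spike-in scaling turned Ccl25 in knock-in (−0.38), Cxcl11 in knock-in (−0.045) and Cxcr6 in both genotypes (−0.061 in knock-in, −0.30 in wild-type glands). It called 2 higher and 17 lower in knock-in and 1 higher and 21 lower in wild-type glands (58.2% and 66.2% of all genes). Scaling to probes bright on all arrays gave 7 higher and 10 lower in knock-in and 4 higher and 13 lower in wild-type glands (45.6% and 44.1% of all genes). The percentile over spots, chosen after seeing the data, gave 8 higher and 10 lower in knock-in glands (43.2% of all genes). Without the arrays of mice 376 and 184, also chosen after seeing the data, 23 members were called in knock-in and 22 in wild-type glands (55.7% and 59.5% of all genes). Both mice were knock-in, so the wild-type differences themselves did not move, only the spread estimate that all 4 groups share. The cause of the other changes was not tested. Of 35 called gene results, 14 kept the call in all settings that gave a value. Dim members such as Ccl20, Cxcl15, Ccr3 and Ccr6 are limited by signal over background.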
